A study of Mus musculus with 4 samples.

Results

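The mitochondrial ribosomal proteins covered here are 7 nuclear genes, taken by symbol from the 4167 complete lines of the deposited table: Mrpl15, Mrpl30, Mrpl41 and Mrpl44 of the large subunit, and Mrps2, Mrps9 and Mrps14 of the small subunit. Of these lines, 4104 matched an annotated gene on chromosome 1 (3377) or chromosome 2 (727, the last ending at base 31460738). Only 4 of 52 listed large subunit genes and 3 of 30 small subunit genes are therefore covered. Shares and medians over all tested genes, and sums of reads, describe this part of the genome. Genes absent from these lines were not measured here. The rule goes by symbol and function and uses no measured value, although the genes were proposed with earlier results of these data known. All 7 passed the filter on low values, which asked for 1 or more on the log2 scale in at least 2 libraries, as did 1199 genes in all. They were measured in long-term haematopoietic stem cells (LT-HSCs), the rare self-renewing cells at the root of blood formation, which were obtained by flow cytometry from the leg bones of mice. The ATF4 KO genotype is a conditional knockout of the transcription factor ATF4 and was set against wild type (WT). There were 2 libraries of polyadenylated RNA for each genotype, made with a modified Smart-seq2 protocol. The labels give neither the Cre line nor the age or number of animals, so the p-values below measure the spread between these libraries, which may be technical. Atf4 itself lies outside the lines analysed here, and the genotype labels were therefore not checked against it.

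Mitochondrial ribosomes translate the few proteins that the mitochondrial genome encodes, all of them subunits of the respiratory chain and of ATP synthase. Every protein of these ribosomes is made in the cytosol from a nuclear gene and imported. In adult LT-HSCs, which are mostly quiescent and rely little on respiration, mitochondrial function is known to matter when the cells become active and differentiate. ATF4, the main transcription factor of the integrated stress response, is induced in many cell types when mitochondrial translation fails.

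The values are regularized logarithms, in which each library is drawn towards the mean of its gene, and the read numbers behind them were recovered exactly for 1910 of the 1928 genes with values, all 7 members included. The ATF4 KO libraries were very shallow. Their size factors, the relative depths used to normalise each library, were 0.165% and 0.171% of that of WT 1, against 79.0% for WT 2. Summed over the recovered genes, the ATF4 KO libraries held 40707 and 38424 reads, against 976712 reads in WT 1 and 800615 in WT 2. By these sums, which cover only part of each library, the ATF4 KO libraries stood at 4.17% and 3.93% of WT 1. The 50 genes of most reads took 97.5% and 93.6% of the ATF4 KO reads, against 34.5% and 36.3% of the WT reads, and 80 genes had 10 or more reads in an ATF4 KO library and 0 in the other. Of the LT-HSC markers, Slamf1, Gfi1b and Cavin2 had 0 reads in each ATF4 KO library and Selp had 1 and 0. In the WT libraries these 4 genes had 186 to 1579 reads. At the depth by size factor few reads are expected for such genes, so 0 reads alone do not show a loss. Cd34 and Cd48, expected low in LT-HSCs, took 0.0270% and 0.0260% of the recovered reads in ATF4 KO, against 2.08% and 2.22% in WT. The sums of 8 lymphoid markers were also lower, at 0.00983% and 0.284% in ATF4 KO, against 0.594% and 0.612% in WT. The 5 myeloid markers reported here summed to 3.86% and 2.34% of the recovered reads in ATF4 KO, nearly all from Fcer1g with 1569 and 901 reads, against 0.239% and 0.288% in WT, while Fcgr2b, Fcgr4 and Cxcr2 had 0 ATF4 KO reads. The part that depth and cell content have in the differences below was not tested, and in bulk libraries fewer cells of a type and less RNA per cell cannot be told apart.

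The promoters of 3 members are shown because these genes carry the results: Mrps2 was the member past the threshold, Mrps14 stood apart from the other 6, and Mrpl30 was the member with a read in both ATF4 KO libraries. Each window runs from 250 bases before to 50 bases after the RefSeq start on GRCm38.p6 and is written 5′ to 3′ on the strand of the gene, which is the plus strand for all 3. The windows are chr2:28467816-28468115 for Mrps2, chr1:160194965-160195264 for Mrps14 and chr1:37890227-37890526 for Mrpl30. Capitals mark the match to a YY1 core.
Mrps2: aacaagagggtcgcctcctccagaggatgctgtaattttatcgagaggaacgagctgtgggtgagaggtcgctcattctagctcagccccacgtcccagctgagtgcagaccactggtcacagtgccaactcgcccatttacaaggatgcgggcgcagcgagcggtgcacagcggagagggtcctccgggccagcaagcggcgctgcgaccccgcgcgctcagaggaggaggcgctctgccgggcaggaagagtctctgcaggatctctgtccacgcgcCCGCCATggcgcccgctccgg
Mrps14: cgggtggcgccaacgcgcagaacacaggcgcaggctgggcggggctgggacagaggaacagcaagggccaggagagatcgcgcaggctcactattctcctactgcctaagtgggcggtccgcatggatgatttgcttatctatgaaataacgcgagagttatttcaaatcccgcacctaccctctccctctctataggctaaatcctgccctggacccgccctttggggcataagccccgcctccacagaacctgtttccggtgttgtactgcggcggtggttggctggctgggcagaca
Mrpl30: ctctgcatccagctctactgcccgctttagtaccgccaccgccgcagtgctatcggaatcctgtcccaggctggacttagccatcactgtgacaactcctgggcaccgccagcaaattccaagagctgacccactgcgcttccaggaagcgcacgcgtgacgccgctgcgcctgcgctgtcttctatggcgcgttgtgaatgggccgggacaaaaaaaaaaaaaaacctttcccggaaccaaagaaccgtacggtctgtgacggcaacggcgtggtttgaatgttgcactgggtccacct
RefSeq promoters were found for 6 of the 7 members, the exception being Mrpl15. They were searched on both strands for 4 motifs: the NRF1 core GCGCATGCG and the ETS core CCGGAAG, whose factors act on many nuclear genes of mitochondria, the YY1 core ATGGCGG, and the C/EBP-ATF element TGATGNAA, the composite site that ATF4 can bind with C/EBP proteins. The only match was the YY1 core in Mrps2, on the minus strand, starting 30 bases into the transcript. Of 27025 promoters of the same length, 4.19% hold the YY1 core, 1.81% the NRF1 core, 9.12% the ETS core and 4.06% the C/EBP-ATF element. The GC content of the 6 windows lay between 42.3% (Mrpl44) and 68.0% (Mrpl41), against a median of 52.7% for all promoters. The absence of a match says only that these letters are not in these windows.

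On the deposited scale, 6 of the 7 members had lower values in both ATF4 KO libraries than in either WT library, and the seventh, Mrps14, did not. The same order of groups was seen in 40.7% of the 1199 tested genes. Past the test, limma with Benjamini-Hochberg adjustment over all tested genes and a threshold of 0.05, was only Mrps2, which fell. No member rose past it, either in limma (0 at an unadjusted p under 0.05) or in voom on the recovered reads (also 0). Across the table, 22.4% of the tested genes were past the threshold with lower values in ATF4 KO and 24.6% with higher values, so 1 lower member of 7 is near the background. A count of 0 in each ATF4 KO library lay behind 257 of the 268 lower genes and behind 283 of the 295 higher genes. The ATF4 KO values of such a gene differ only through the size factors and the transform. Small standard errors of these genes therefore do not reflect agreement between ATF4 KO measurements. A gene with 0 reads in both ATF4 KO libraries shows no rise in reads. The 24.6% is thus not a share of genes with more reads in ATF4 KO. With a minimum difference of 1, 192 genes were lower and 11 higher. The median difference, ATF4 KO minus WT, was -1.90 on the log2 scale for the members and 0.02 for all tested genes. All tested genes were not matched to the members for WT level. The 2 medians and the share of 40.7% are therefore no like-for-like comparison.

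**Figure D1:**
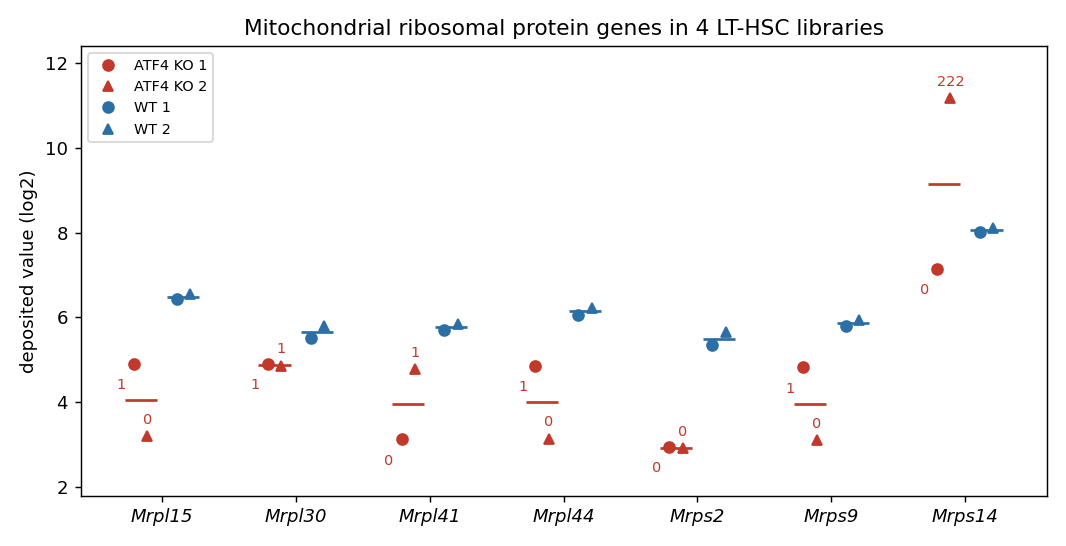
Deposited log2 values of the 7 genes in each library, with ATF4 KO in red left of WT in blue; circles are library 1, triangles library 2, horizontal lines group means, and the red numbers the recovered reads of each ATF4 KO library. Mrps2 has 0 reads in both ATF4 KO libraries, Mrps14 has 0 and 222, and the other 5 genes have 0 or 1 in each.

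Of the large subunit genes, Mrpl15 (chr1:4773206-4785739, minus strand) encodes a protein with a bacterial counterpart in the large subunit. Its values were 4.90 and 3.20 in ATF4 KO 1 and ATF4 KO 2, against 6.42 and 6.56 in WT 1 and WT 2. Behind them stood 1 and 0 reads in the ATF4 KO libraries, against 2021 and 1772 in the WT libraries. The genotypes did not overlap, but the ATF4 KO libraries lay 1.70 apart, and the difference of -2.44 (SE 0.76) did not pass the test (adjusted p = 0.0997, limma). At WT levels and the recovered size factors, 7.18 reads were expected over both ATF4 KO libraries, and the 1 read found was 0.139 of that (exact 95% Poisson interval 0.00353 to 0.776, counting error only).

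Mrpl30 (chr1:37890477-37898535, plus strand), also with a bacterial counterpart, was the only member with a read in each ATF4 KO library. It had values of 4.90 and 4.86 in ATF4 KO, against 5.51 and 5.80 in WT, from 1 and 1 reads in ATF4 KO and 1010 and 998 reads in WT. Its ATF4 KO values were nearly equal and lay below both WT values, with the smallest of the 6 negative differences, -0.78 (SE 0.31, adjusted p = 0.152, limma). The 2 reads were 0.523 of the 3.83 expected, and the interval of 0.0633 to 1.89 includes 1. Its annotated transcripts resemble 5 processed pseudogenes, none among the lines analysed, at 90% to 94.8% identity over up to 484 bases, and how the counting treated reads that fit several genes is not given in the sources used here.

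Mrpl41 (chr2:24974117-24975098, minus strand) encodes a large subunit protein that bacterial ribosomes lack. It had 3.13 and 4.78 in ATF4 KO, against 5.71 and 5.86 in WT, from 0 and 1 reads in ATF4 KO and 1210 and 1072 reads in WT. Here the higher ATF4 KO value was that of library 2, where Mrpl15 had its lower value. The difference was -1.83 (SE 0.73, adjusted p = 0.151, limma), and the 1 read was 0.231 of the 4.32 expected (0.00586 to 1.29). A processed pseudogene outside the lines analysed matches its transcripts at 97.8% over 372 bases.

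Mrpl44 (chr1:79776018-79781445, plus strand) encodes another protein without a bacterial ribosomal counterpart, with a fold like that of ribonuclease III. It had 4.86 and 3.14 in ATF4 KO, against 6.07 and 6.22 in WT, from 1 and 0 reads in ATF4 KO and 1563 and 1383 reads in WT. The groups did not overlap, the difference was -2.14 (SE 0.76, adjusted p = 0.126, limma), and the 1 read was 0.179 of the 5.58 expected, with an interval of 0.00454 to 0.999 that ends just under 1. Of its exonic bases, 126 (7.66%) are shared with Wdfy1 on the opposite strand, and without strand information reads there cannot be told apart.

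Of the small subunit genes, Mrps2 (chr2:28468066-28471178, plus strand), whose protein also has a bacterial counterpart, fell in ATF4 KO. Its values were 2.95 and 2.91 in ATF4 KO 1 and ATF4 KO 2, against 5.35 and 5.65 in WT 1 and WT 2, from 0 and 0 reads in ATF4 KO, against 980 and 976 in WT. The difference was -2.57 (SE 0.18, adjusted p = 0.0035, limma), with both ATF4 KO libraries below both WT libraries. The reads behind this call are few: 3.73 were expected over both ATF4 KO libraries at WT levels. With the 3 reads over the pair that a count of 0 allows, Mrps2 was at least 1.24-fold lower. That limit is one-sided and tighter than the two-sided intervals of the other members. Its transcripts resemble those of no other annotated gene over 200 or more bases at 90% identity. A label permutation of 2 libraries against 2 cannot give a two-sided exact p below 0.333. With 0 reads in each, the ATF4 KO values of Mrps2 lay 0.03 apart, against 1.70 for those of Mrpl15, whose difference was nearly as large and did not pass. The gap of 0.03 follows from the size factors and the transform and is no measured spread.

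Mrps9 (chr1:42851233-42905683, plus strand), with a bacterial counterpart in the small subunit, had 4.82 and 3.10 in ATF4 KO, against 5.80 and 5.94 in WT. The reads were 1 and 0 in ATF4 KO, against 1291 and 1134 in WT. Like Mrpl15 and Mrpl44, it had its only ATF4 KO read in library 1, and the difference of -1.90 (SE 0.76, adjusted p = 0.151, limma) did not pass the test. The 1 read was 0.218 of the 4.59 expected (0.00552 to 1.21).

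Mrps14 (chr1:160195215-160202170, plus strand), again with a bacterial counterpart, was the member of most reads in WT and behaved unlike the other 6. Its values were 7.15 and 11.16 in ATF4 KO 1 and ATF4 KO 2, against 8.03 and 8.12 in WT 1 and WT 2. The ATF4 KO libraries lay on either side of WT and 4.01 apart. The reads were 0 and 222 in ATF4 KO, against 3697 and 3376 in WT, so that the value of 7.15 in ATF4 KO 1 stands for 0 reads. In ATF4 KO 2 the 222 reads were 32.6 times the 6.82 expected there from the size factors, whereas ATF4 KO 1, of nearly the same size factor, had 0. The difference of 1.08 (SE 1.75, adjusted p = 0.627, limma) was smaller than its error. It depends on which ATF4 KO library is used: without ATF4 KO 1 it was 3.09 (adjusted p = 0.000266) and without ATF4 KO 2 it was -0.92 (adjusted p = 0.0024), where the lone ATF4 KO library is assumed to vary like the WT libraries. Mrps14 held 97.4% of the 228 ATF4 KO reads of the 7 genes, and a processed pseudogene like it (93.8% identity over 389 bases) is listed at 0 in all 4 libraries. Stretches of 200 to 219 bases at 90% or more also match 18 other genes, among them Cxcr2 and Eprs in the table, and 6 genes match Mrpl15 in the same way over up to 214 bases.

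**Figure D2:**
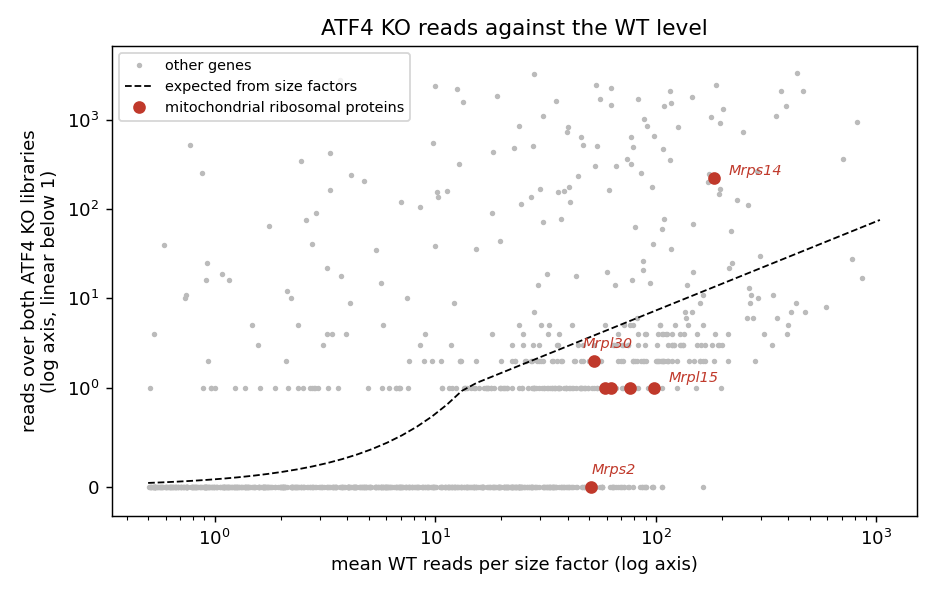
Reads over both ATF4 KO libraries (vertical axis, logarithmic above 1) against the mean WT reads per size factor (horizontal axis, logarithmic) for the 1096 genes with a WT level over 0.5; the dashed line gives the reads expected from the size factors and red points the 7 genes. Mrps14 lies far above the line with 222 reads, and the other 6 lie below it with 0 to 2 reads.

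Whether so few reads are particular to these genes was read against genes of similar level. In WT the 7 genes had between 51.0 (Mrps2) and 183 (Mrps14) reads per size factor, and 207 genes lay in this range. Of these 207 genes, members included, 18.4% had 0 reads over the ATF4 KO pair, 35.7% had 1 or 2 over the pair, and 29 genes had 100 or more. The median was 2 reads. Among the members, 1 had 0 reads, 5 had 1 or 2 and 1 had 222. The range as a whole held 19.1 times the ATF4 KO reads expected from the size factors. Without the 29 genes of 100 or more reads, a limit chosen after the values were seen, the figure was 0.679 times. The 6 members other than Mrps14 had 6 reads where 29.2 were expected.

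The read ratios depend on which depth is taken for the ATF4 KO libraries, since ATF4 KO 1, for example, stands at 0.165% of WT 1 by its size factor and at 4.17% by its summed reads. With the size factors, 3 members had fewer ATF4 KO reads than expected beyond counting error (Mrpl15, Mrpl44 and, by a one-sided limit, Mrps2). Mrps14 had more, at 16.5 times (14.4 to 18.9), and the intervals of Mrpl30, Mrpl41 and Mrps9 included 1. Of the 207 genes of similar WT level, 40.6% had fewer and 20.3% had more by the same rule, so 3 and 1 of 7 are near the background. With the summed reads, all 7 members had fewer, as did 87.4% of the 207 genes, while 12.1% had more. At the yield of the 207 genes themselves all 7 members were again below, as were 87% of these genes, with 12.6% above. From the summed reads, Mrps14 had 0.705 of the 315 reads expected (0.615 to 0.804). On the same sums, the 5 members with 1 or 2 reads had 0.00592 (Mrpl15) to 0.0224 (Mrpl30) of those expected. Mrps2 was at least 29.0-fold lower by these sums. At the yield of the 207 genes, Mrps14 had 0.866 of the 256 reads expected (0.756 to 0.988). The ratio of Mrps14 over the pair therefore turned with the scaling, while those of the other 6 were below 1 under each scaling. In ATF4 KO 2 alone, which held all its ATF4 KO reads, Mrps14 took 0.578% of the recovered reads, against 0.379% in WT 1 and 0.422% in WT 2.

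**Figure D3:**
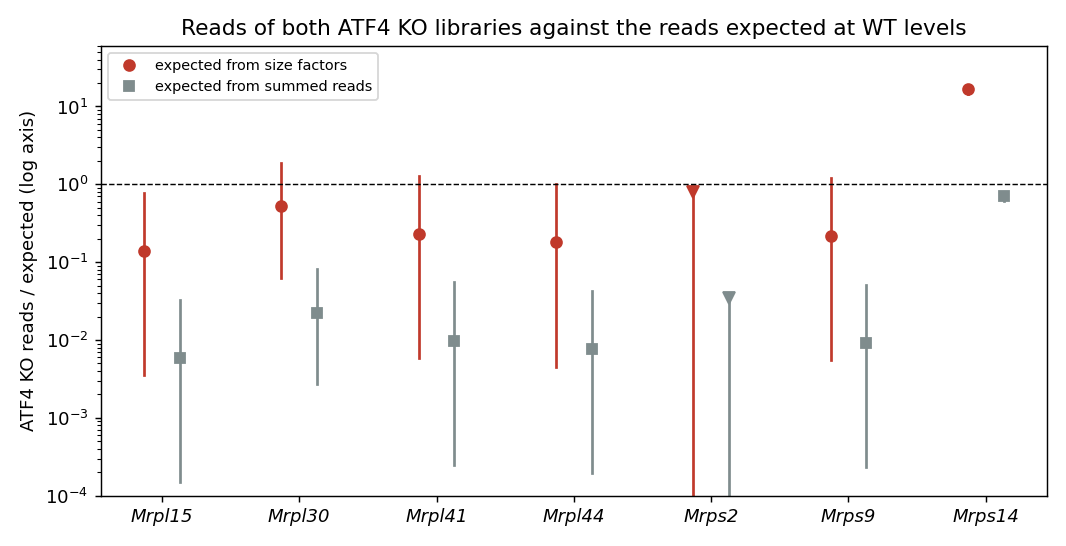
Reads found over both ATF4 KO libraries divided by those expected at WT levels (logarithmic axis), with exact 95% Poisson intervals, for expectations from the size factors (red circles) and from the summed reads (grey squares). The triangles of Mrps2 are one-sided upper limits from 0 reads, and Mrps14 is at 16.5 with the size factors and at 0.705 with the summed reads.

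Only the WT libraries were deep enough to rank the members. Per kilobase of annotated exons, Mrpl41 was highest at 66.5 ± 5.41 reads per size factor (SD, n = 2 libraries), then Mrps14 at 56.3 ± 5.77 and Mrpl44 at 46.4 ± 3.73. The other 4 were lower, with Mrps2 at 17.5 ± 2.85, Mrpl30 at 16.2 ± 2.56, Mrpl15 at 11.6 ± 0.855 and Mrps9 at 10.9 ± 0.819. The order was the same in WT 1 and WT 2, but the ranges of Mrps2 and Mrpl30 overlapped, and so did those of Mrpl15 and Mrps9. With the longest transcript as length, the 3 highest kept their order and the lowest 4 became Mrpl30 at 29.8, Mrps9 at 25.9, Mrpl15 at 21.3 and Mrps2 at 20.4. All 7 were above the median of 4.27 for the 852 protein-coding genes with at least 10 reads in each WT library, and Mrpl41 was above 95.9% of them. Large and small subunit genes were mixed in the order.

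The 2 WT libraries differed a little for these genes. All 7 had more reads per size factor in WT 2 than in WT 1, by 1.11 times (Mrpl15) to 1.26 times (Mrps2), with a median of 1.12. Among the 207 genes of similar level the median was 1.04 times, and 63.3% were higher in WT 2.

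**Figure D4:**
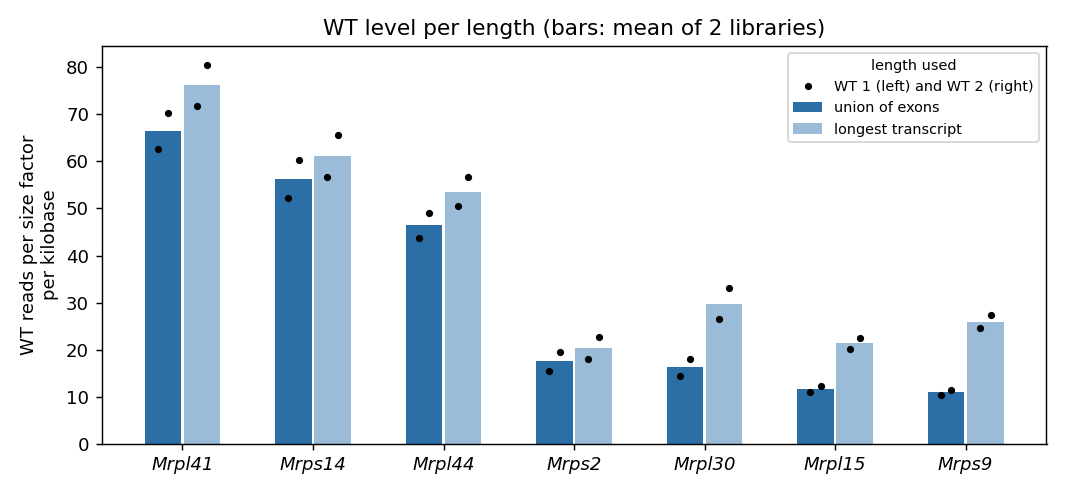
WT reads per size factor and kilobase of the 7 genes, for the union of annotated exons (dark bars) and the longest transcript (light bars); bars are means of 2 libraries and points the libraries. Mrpl41, Mrps14 and Mrpl44 are highest with either length, at 46.4 or more, and the other 4 are at 29.8 or less.

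Other genes of the same pathway were taken from gene lists. Of the genes that assemble the mitochondrial ribosome or modify its RNA, 3 were tested: Mterf4, which helps recruit a methyltransferase to the ribosome, fell by 1.25 on the log2 scale (SE 0.05, adjusted p = 0.00225, limma) with 0 and 0 ATF4 KO reads, against 395 and 317 in WT. At WT levels 1.34 reads were expected over the ATF4 KO pair, under the 3 that a count of 0 allows. Fastkd2 and Trub2, which bind mitochondrial RNA, did not pass, with differences of -1.42 and -0.22. Of the mitochondrial aminoacyl-tRNA synthetases, which charge the tRNAs for this ribosome, Mars2 fell by 1.99 (SE 0.14, adjusted p = 0.00346, limma) with 0 and 0 ATF4 KO reads, against 631 and 616 in WT, where 2.37 were expected. In voom on the recovered reads neither passed, with differences of -0.43 for Mterf4 (adjusted p = 0.184) and -1.25 for Mars2 (adjusted p = 0.0561). Iars2 did not pass, with a difference of 2.30 (SE 2.05, adjusted p = 0.42, limma). It had 13.45 and 8.71 on the log2 scale in ATF4 KO, against 8.77 and 8.79 in WT, from 3296 and 0 reads in the ATF4 KO libraries, against 542 and 538 in WT, an imbalance of the same kind as that of Mrps14 but in the other library.

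Of the nuclear genes of the respiratory chain, whose products assemble with those made on mitochondrial ribosomes, 6 tested genes are reported and 1 passed. Atp5c1, which encodes a part of the central stalk of ATP synthase, fell by 2.66 (SE 0.39, adjusted p = 0.0176, limma), with 1 and 1 reads in ATF4 KO, against 5642 and 5210 in WT. The call was lost without WT 1 (adjusted p = 0.645), without WT 2 (adjusted p = 0.698) and among genes with an ATF4 KO read alone (adjusted p = 0.304), at differences of -2.76 to -2.56, and held in voom (adjusted p = 0.03). The other 5 ranged from -2.50 (Ndufa10) to 1.48 (Cox5b), with Sdhc at -2.09, Ndufb3 at -1.95 and Ndufs1 at -0.56. Cox5b, a subunit of cytochrome c oxidase, had 2 and 357 reads in ATF4 KO, against 2346 and 2153 in WT, with the reads in ATF4 KO 2 as for Mrps14.

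None of the 4 mitochondrial chaperones and proteases passed in limma, with 1 lower at an unadjusted p under 0.05 (Pmpca) and 0 in voom. Their differences ran from -2.56 (Yme1l1) over -2.37 (Hspe1) and -1.78 (Pmpca) to -1.61 (Hspd1). None of the 4 cytosolic ribosomal proteins passed either, with 0 at an unadjusted p under 0.05 and 0 in voom, but their differences were all above 0. Rpl37a stood at 2.54, Rpl7 at 1.99, Rpl31 at 1.98 and Rpl7a at 0.49. Rpl37a had 525 and 140 reads in ATF4 KO, against 2048 and 1741 in WT, and Rpl31 had 1792 and 12, against 2897 and 2751. With Rpl7 at 41 and 164 ATF4 KO reads and Rpl7a at 1 and 15, these 4 genes had 1 or more reads in both ATF4 KO libraries, which among the mitochondrial ribosomal proteins was true of Mrpl30 only. Medians were -1.99 for the 4 large subunit genes, -1.90 for the 3 small subunit genes, -1.25 for assembly, 0.16 for the 2 synthetases, -2.02 for the respiratory chain, -2.07 for chaperones and proteases and 1.98 for cytosolic ribosomal proteins, against 0.02 for all tested genes. These sets were not matched for WT level. Over all lists, 3 of the 19 reported genes that are not mitochondrial ribosomal proteins were lower and 0 were higher, also 0 higher at an unadjusted p under 0.05 and 0 in voom. In limma, 22.4% of the whole set of 1199 passed as lower and 24.6% as higher. The 3 lower genes of 19 are therefore not above the background. Most of the higher calls rest on 0 ATF4 KO reads, so 24.6% is no like-for-like background for the 0 higher genes.

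**Figure D5:**
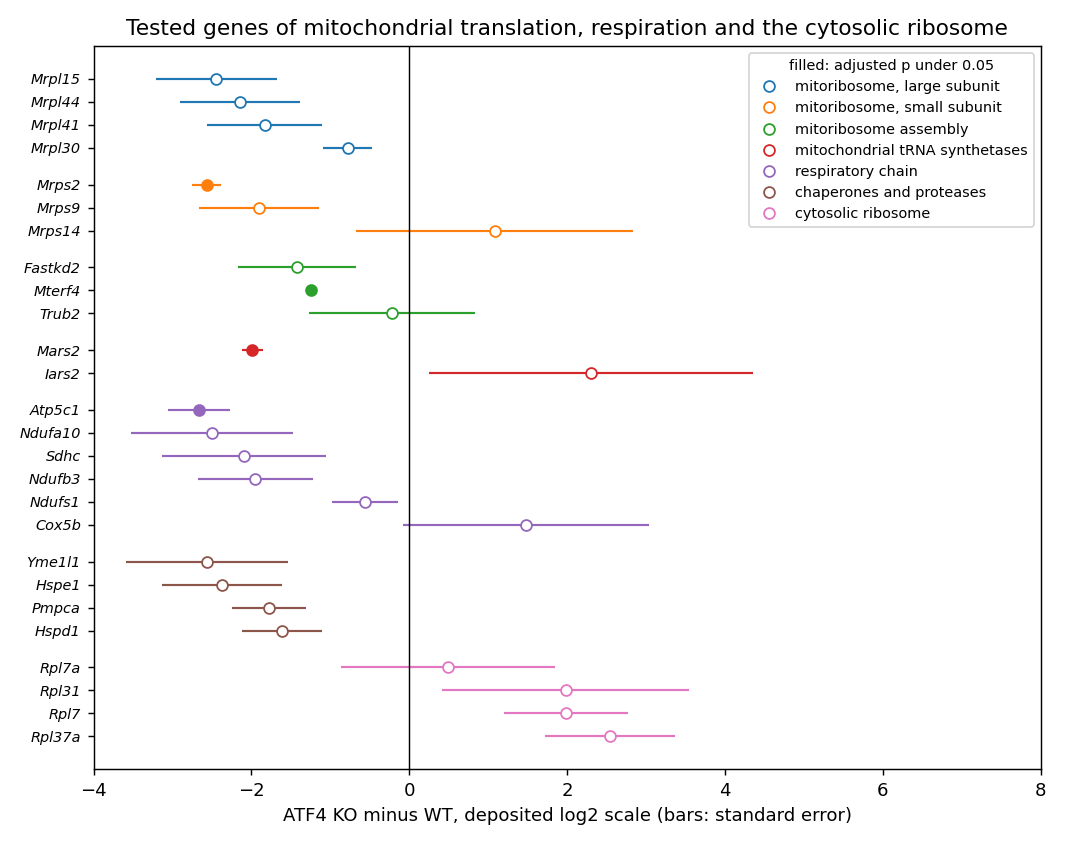
Differences between ATF4 KO and WT (the WT mean subtracted, log2 scale, horizontal axis) with standard errors for the 26 tested genes reported from the lists; filled points passed the adjusted p of 0.05 in limma. Mrps2, Mterf4, Mars2 and Atp5c1 are filled and below 0, and the 4 cytosolic ribosomal proteins are open and above 0.

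For 6 of the members the tested protein-coding gene with the most similar values was found, by the Euclidean distance over the 4 libraries among 912 genes. Mrpl44 was closest to Ddx18, a nucleolar RNA helicase, at 0.03 on the log2 scale, and Mrpl41 to Sephs1 at 0.05. Mrpl15 was closest to Hspe1 (0.13), Mrps2 to Zfand2b (0.15) and Mrpl30 to Tpp2 (0.18). These 5 neighbours had the same reads in each ATF4 KO library as their members, 0 or 1. The farthest was that of Mrps14, Snrpe, a core protein of spliceosomal particles, at 0.52. Snrpe had 0 and 502 reads in ATF4 KO, against 1496 and 1516 in WT, the same split between the ATF4 KO libraries as Mrps14. The neighbours were chosen by these same values, so shared patterns of ATF4 KO reads largely follow from the choice.

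By position, 3 of the 7 members start within 1000 bases of a protein-coding gene on the opposite strand, which holds for 11.4% of 1474 protein-coding genes in the table. Mrpl30 and Mitd1 diverge from starts 66 bases apart, Mrpl41 and Pnpla7 from starts 935 bases apart, and the starts of Mrpl44 and Wdfy1 overlap by 125 bases. Mitd1 had 1 and 0 reads in ATF4 KO, against 661 and 442 in WT, a difference of -0.93 (SE 0.73, adjusted p = 0.377, limma). Pnpla7 had 0 and 2 reads in ATF4 KO, against 2102 and 1280 in WT, and Wdfy1 had 1 and 0, against 446 and 285. Neither passed the test, and unlike the members all 3 neighbours had fewer reads per size factor in WT 2 than in WT 1.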

How the data were processed

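Polyadenylated RNA of LT-HSCs came in 4 libraries, grouped by their titles into ATF4 KO and WT. The deposited table gives a log2 value per gene and library. HISAT2 2.2.1, featureCounts, DESeq2 and GRCm38 are named by the submitters' processing notes without roles, and the transform that made the deposited values is not given in the sources used here. The values met the equation of a regularized logarithm, a negative binomial model with a ridge penalty (weight 0.1645), which was solved for the whole reads of each library. The rebuilt values matched the deposited values of 1910 genes within 1e-08, and 18 genes were left without reads. The last line of the table, which is incomplete, was left out.

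limma 3.58.1 (R 4.3.3, statmod 1.5.0) was fitted to the log2 values, with a prior that follows the level and robust estimation. Both steps were tested on simulated data, within limits. The recovery test made its values with the same assumed transform, so it cannot show that this transform is the right one. The limma test gave all libraries the WT spread (root mean square SD 0.185), whereas that of ATF4 KO was 1.39. It therefore does not give the error rates of the real comparison. The design had provided for voom on recovered reads only as an alternative. Expected reads are the mean normalised WT reads times the ATF4 KO size factors. Ratios have exact two-sided 95% Poisson intervals (scipy), and 0 reads allow up to 3 over the pair, a one-sided limit. All intervals and limits cover counting error only. Coordinates, exons and gene types are from GENCODE M21 on GRCm38, promoters from RefSeq on GRCm38.p6, and similar transcripts from blastn 2.17.0 (at least 90% identity over 200 bases). Named genes are all members, up to 8 tested genes per list by p, and for each member the nearest protein-coding gene. The members, lists and motifs were chosen with earlier results of these data known. Some genes of the lists and the nearest gene of Mrps9 are not reported here and were left out of list counts and sums. The lists of mitochondrial translation factors and of erythroid and megakaryocyte markers had 0 genes reported from the table. The sums of 8 lymphoid markers were 0.00983% and 0.284% of the recovered reads in ATF4 KO, against 0.594% and 0.612% in WT, and those of Cd34 and Cd48, expected low in LT-HSCs, were 0.0270% and 0.0260% in ATF4 KO, against 2.08% and 2.22% in WT. Alternatives tried were other filters and priors, a minimum difference, a replicate block, each library left out, voom, and other expected reads and lengths.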

Additional observations from a re-analysis of the deposited data

How the results depend on the processing

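Mrps2 was lower past the threshold in limma and voom under each alternative that tested it with all 4 libraries, with differences of -6.46 to -1.90. These alternatives all use the same 0 and 0 ATF4 KO reads, so their number adds no support to the call. Mrps2 could not be tested among genes with an ATF4 KO read alone, where 0 members passed (1 lower at an unadjusted p under 0.05), and so did 0 of the 506 genes in either direction (21 lower and 60 higher unadjusted). Leaving out a library in turn gave 1 to 7 lower and 0 to 1 higher members, and 302 to 451 lower and 332 to 441 higher genes. The highest member counts came from the fits without an ATF4 KO library. There the lone ATF4 KO library is assumed to vary like the WT libraries, so these counts are no calls of the full comparison. The difference of Mrps14 ran from -0.92 to 3.09 over these fits and turned to -3.86 in voom with summed reads as library sizes, an alternative added after the data were seen, where 2 members (Mrpl30 and Mrps2), 474 lower and 11 higher genes passed. With the size factors voom gave 68 lower genes. Higher genes numbered 1037 with no filter, 15 with a lowest value of 3, 28 with no trend in the prior and 11 with a minimum difference of 1. At the yield of genes of similar WT level, and from summed reads (added later), 7 members were below the expected reads and 0 above, with Mrps14 at 0.866 and 0.705, as were 87% and 87.4% of the 207 genes of similar level. Mrpl44 was no longer below with WT 1 alone (two-sided interval up to 1.06). Mrps2 stayed below there by its one-sided limit of 0.91, which is tighter than a two-sided interval. The cause of these changes was not tested. Deviations of same-numbered libraries had a correlation of -0.076 over 1199 genes. Many ATF4 KO deviations come from 0 reads in both libraries or from a single read. The check therefore could not settle whether the replicate number pairs the libraries. With the replicate block 233 lower and 277 higher genes and 1 lower member passed, but not Atp5c1 (adjusted p = 0.14, limma). Depth limits the ATF4 KO side: at the size factors 3.73 to 13.4 reads were expected per member over both libraries. Groups of 2 libraries allowed no outlier test.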
